A study of Homo sapiens with 42 samples.

Results

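The miR-30 family was followed across the small RNA libraries of a study that asked how cell confluency changes the microRNA (miRNA) content of human cells. The family members were the 8 entries miR-30a-5p, miR-30b-5p, miR-30c-5p, miR-30d-5p, miR-30e-5p, miR-30a-3p, miR-30d-3p and miR-30e-3p, found by name among the 2657 entries of the deposited table of raw counts. The less abundant 3p arms miR-30b-3p, miR-30c-1-3p and miR-30c-2-3p served as a related list. Wild-type cells of 3 established lines had been grown without treatment to a subconfluent or a confluent state: HEK293, an embryonic kidney line, A375, a melanoma line, and SHSY5Y, a neuroblastoma line. RNA came from the cytoplasm and from the nucleus of each line, with 3 libraries in each of these 12 groups. HEK293 cells were also sampled after immunoprecipitation (IP) of AGO1-4 with the T6B peptide, a piece of an AGO-binding protein that captures all human Argonautes, with 3 subconfluent and 3 confluent libraries. HEK293 and A375 were kept in DMEM and SHSY5Y in RPMI, all with serum and antibiotics, and each line stands for its tissue only as 1 cultured line.

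MicroRNAs are cut from hairpin precursors by Drosha and Dicer, and either arm of a hairpin, 5p or 3p, can be loaded into an Argonaute protein, where it guides silencing of messenger RNAs. Bases 2 to 8 of the loaded strand, the seed, set most of its target choice, so that strands with a common seed form a family with overlapping targets. The miR-30 guide strands lie on the 5p arm of hairpins that are encoded in pairs. The family is abundant in kidney and is known for holding back mesenchymal genes in epithelial cells, and miR-30b and miR-30d have been studied in melanoma spread.

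Mature sequences from RefSeq (GRCh38.p14) are printed for 5 of the 8 members, to show how closely the strands compared below resemble each other. The seed is in capitals.
miR-30a-5p: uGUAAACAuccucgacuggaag
miR-30e-5p: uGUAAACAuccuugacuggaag
miR-30c-5p: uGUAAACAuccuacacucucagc
miR-30a-3p: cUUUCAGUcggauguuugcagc
miR-30e-3p: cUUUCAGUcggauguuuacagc
The printed 5p strands carried 1 seed and the printed 3p strands another, 2 distinct seeds in all. Counted from the 5′ end, miR-30a-5p and miR-30e-5p differed at 1 of 22 positions (C13U), and miR-30a-3p and miR-30e-3p also at 1 of 22 (G18A). miR-30c-5p shared its first 12 bases with miR-30a-5p and differed from it at 5 of the 22 positions compared. How reads that fit more than 1 such strand were assigned is not given in the sources used here, so the split of counts between the a and e members is uncertain. In the GENCODE annotation of hg38, the MIR30A hairpin lies at chr6:71403551-71403621 on the minus strand, in an intron of the long non-coding RNA LINC00472. MIR30C2 lies 26519 bases from it, at chr6:71376960-71377031, and overlaps an exon of a LINC00472 transcript. MIR30E at chr1:40754355-40754446 and MIR30C1 at chr1:40757284-40757372 lie on the plus strand in introns of NFYC, with 2837 bases between them.

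The confluent nuclear replicate 3 of HEK293 and that of SHSY5Y held 39 and 31 counts and were left out. Depth was 9817 to 53775 counts in the other 34 fraction libraries. It was 910753 to 1124959 counts in the 6 libraries of the IP, whose values carry far less counting error. Titles of the IP libraries call them biological replicates. Nothing in the labels says so for the fraction libraries, and p-values then measure only the spread between these samples, which may be technical. A summary table of the study exchanged the names of the subconfluent cytoplasm and the confluent nucleus of every line relative to the deposited columns. The column names were followed here, and each fraction result that changes under the exchanged names is given with both values. The libraries of each line formed 1 pool, and the IP libraries of each confluency another, so that line and pool, and IP confluency and pool, cannot be told apart. The IP input is given as total lysate in the labels, as whole cell lysate in the results of the study and as cytoplasmic fraction in its methods.

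Marker miRNAs were summed as a check of the labels. The 5 melanocyte and melanoma markers summed to 50410 to 83591 CPM (counts scaled to a common library size) in A375 and to 2546 to 9521 in the HEK293 and SHSY5Y fractions, though miR-211-5p itself had 2 counts in confluent and 0 in subconfluent A375. Most of the A375 sum was miR-221-3p, at group means of 45540 to 50048 CPM. miR-146a-5p and miR-222-3p were also higher in every A375 group than in any HEK293 or SHSY5Y fraction group. miR-204-5p, at 39.5 to 386 CPM in A375, overlapped its 199 to 346 CPM in HEK293 fractions. The 4 neuronal markers summed to 10990 to 14523 CPM in subconfluent SHSY5Y, above every HEK293 and A375 fraction library. In confluent SHSY5Y they summed to 3367 to 4928 CPM, within the range of A375 (3137 to 9109) and overlapping that of HEK293 (3874 to 7519). The sum was made up mostly of miR-7-5p, which averaged 3330 to 6205 CPM in the HEK293 and A375 groups and 1917 to 2406 in confluent SHSY5Y. miR-124-3p, at group means of 509 and 367 CPM in confluent SHSY5Y, was above its 0 to 116 CPM in HEK293 and A375 fractions and below its 1170 to 1230 CPM in subconfluent SHSY5Y. miR-9-3p, at 393 and 469 CPM in confluent SHSY5Y, lay within its 81.1 to 494 CPM in HEK293 and A375 fractions. miR-9-5p, at 947 and 1167 CPM, overlapped its 259 to 1030 CPM there. Of the 4 markers, only miR-124-3p lay above the HEK293 and A375 group means in both confluent groups. The markers thus did not agree on the confluent SHSY5Y libraries, and results that rest on them are also given for the subconfluent libraries alone where that can be done. A list of nuclear entries, of which 5 of 7 were measured, overlapped between the fractions of HEK293 and of A375. In SHSY5Y it summed to 43.2 to 445 CPM in the libraries named cytoplasm and to 781 to 1672 in those named nucleus, without overlap, at 284 to 445 in subconfluent cytoplasm and 986 to 1372 in confluent nucleus. Most of that nuclear sum was miR-1248, at group means of 54.6 and 101 CPM in the cytoplasm and 861 and 916 in the nucleus. miR-664a-3p and miR-664b-3p were also higher in the nucleus, and miR-1291, at 0 to 52.4 CPM, had no single direction. miR-3651 went the other way, at 75.8 and 151 CPM in the cytoplasm and 44.8 and 26.0 in the nucleus.

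The family took 3.43% ± 0.198 (SD, n = 3) of all counts in the subconfluent IP and 2.39% ± 0.164 (SD, n = 3) in the confluent IP. In the fractions its share ran from 0.899% ± 0.115 (SD, n = 3) in confluent SHSY5Y cytoplasm to 2.34% ± 0.482 (SD, n = 3) in subconfluent SHSY5Y nucleus. Shares of a library are compositional, and fewer cells, or less RNA of 1 kind per cell, cannot be told apart from more of another in bulk samples. Both miR-30b-5p and miR-30c-5p were the most abundant guides in every group. In the IP, miR-30b-5p took 0.808% ± 0.0513 (SD, n = 3) of counts when subconfluent, and in the fractions 0.251% ± 0.0445 (SD, n = 3; confluent SHSY5Y cytoplasm) to 0.768% ± 0.231 (SD, n = 3; subconfluent SHSY5Y nucleus). For miR-30c-5p the highest group was subconfluent A375 nucleus, at 0.895% ± 0.273 (SD, n = 3), beside 0.893% ± 0.0612 (SD, n = 3) in the subconfluent IP, a gap far within the spread. Confluent SHSY5Y cytoplasm was again the lowest for miR-30c-5p, at 0.257% ± 0.0208 (SD, n = 3).

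The rarer guides differed in where they peaked. miR-30a-5p was highest in subconfluent SHSY5Y nucleus at 0.291% ± 0.00809 (SD, n = 3) and lowest in the 4 HEK293 fraction groups, which lay between 0.0223% and 0.0353% and overlapped each other. Between these ends stood the subconfluent IP at 0.248% ± 0.00723 (SD, n = 3), subconfluent SHSY5Y cytoplasm at 0.158% ± 0.0345 (SD, n = 3) and the confluent IP at 0.141% ± 0.0103 (SD, n = 3). The last of these overlapped subconfluent SHSY5Y cytoplasm. miR-30d-5p was highest in the IP, at 0.417% ± 0.0134 (SD, n = 3) when subconfluent and 0.227% ± 0.00793 (SD, n = 3) when confluent. Its subconfluent IP libraries lay above all fraction libraries, while the confluent ones overlapped those of A375 nucleus. For miR-30e-5p the IP stood apart from every fraction library, with 0.511% ± 0.0450 (SD, n = 3) when subconfluent and 0.304% ± 0.0222 (SD, n = 3) when confluent, against fraction group means of 0.0127% to 0.0735%. The 3p strands had other orders. miR-30a-3p was highest in confluent SHSY5Y nucleus at 0.50% (n = 2; 0.417% and 0.582%) and lower in the IP, at 0.129% ± 0.00725 (SD, n = 3) and 0.101% ± 0.0115 (SD, n = 3). miR-30e-3p was highest in the IP, at 0.420% ± 0.0227 (SD, n = 3) and 0.282% ± 0.0388 (SD, n = 3). miR-30d-3p stayed at or below 0.0275% in all groups and had 0 counts in the 3 subconfluent HEK293 nuclear libraries, which allows a share of up to 0.0127% to 0.0306% per library. This limit, like the binomial intervals given for pooled counts, covers counting error only.

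**Figure D1:**
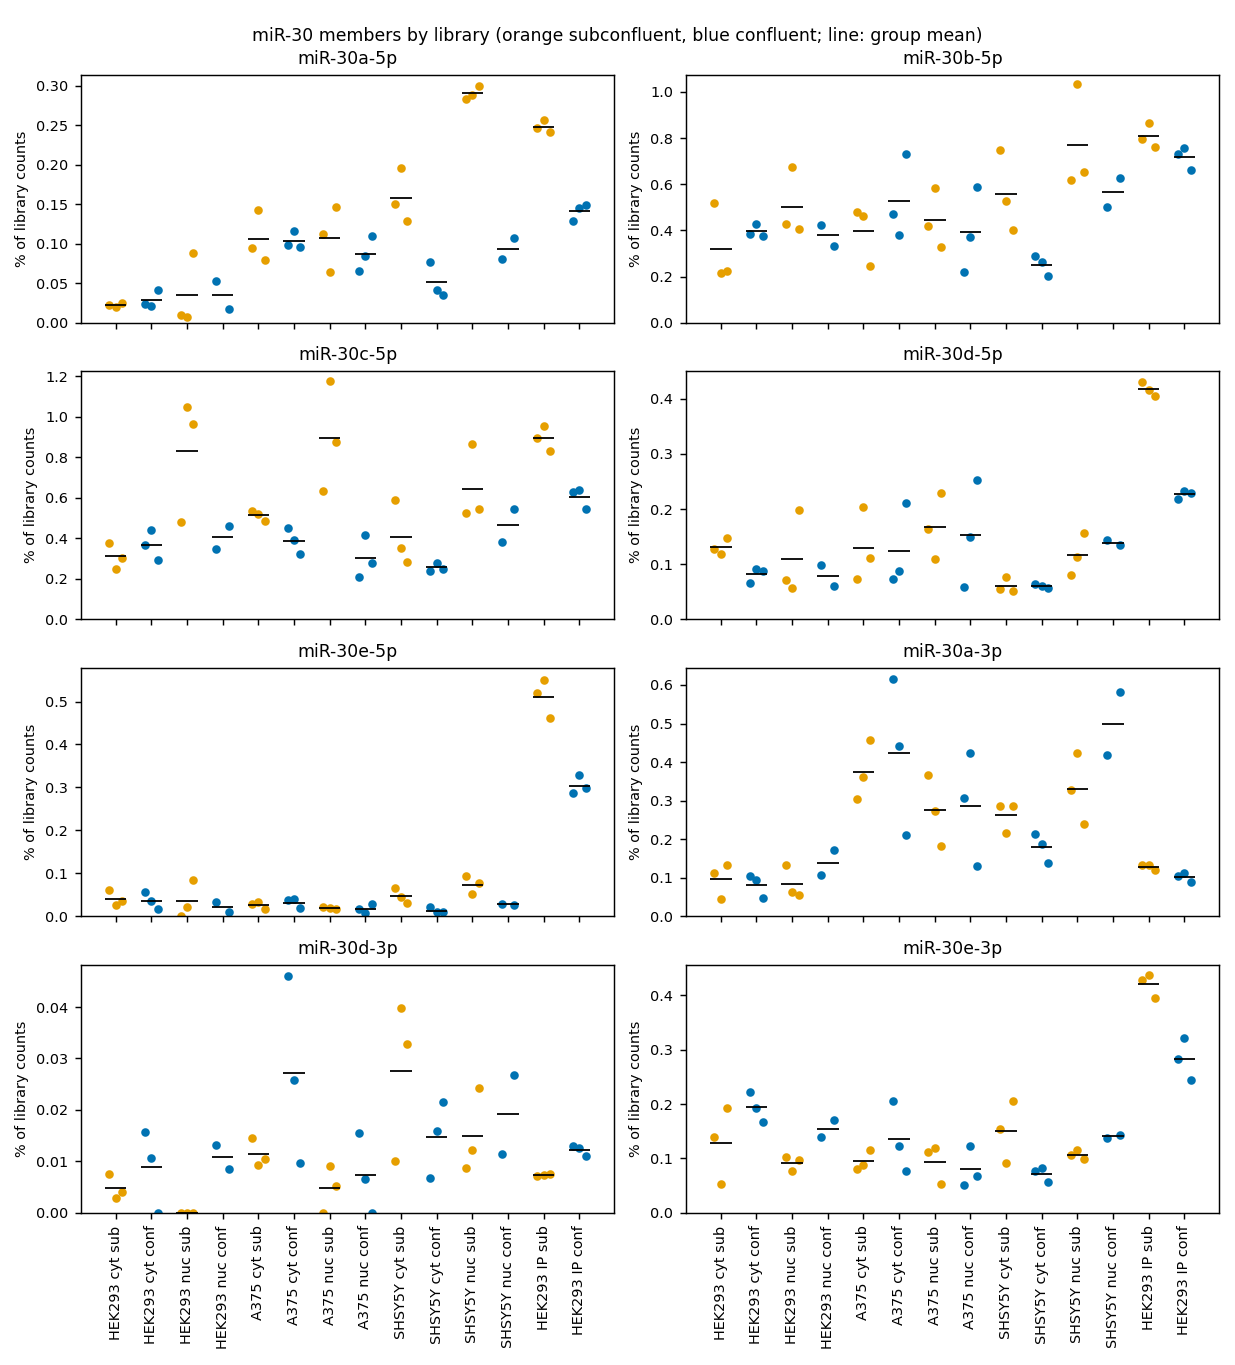
Share of all miRNA counts (percent, linear axis of its own in each panel) of each member in every library. Orange points are subconfluent and blue points confluent libraries, and short lines are group means. The IP libraries hold the highest miR-30e-5p shares, 0.304% and 0.511% on average, and the HEK293 fractions the lowest miR-30a-5p shares.

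Argonaute-bound miR-30 differed between the subconfluent and the confluent IP libraries of HEK293, each confluency being 1 pool. The study itself reported no significant variation of the IP's miRNA profile with confluency, and showed it as a scatterplot of normalized counts. Of the 8 members tested in the IP, 7 were lower and 1 was higher in confluent cells, against 16.8% of all 537 entries lower and 18.4% higher. The members' median log2 fold change was -0.67, beside 0.0023 over all entries. With same-numbered libraries paired by a replicate block, 145 entries were higher and 156 lower in place of 99 and 90, and the members' counts were again 1 and 7. Between the same IP groups the summed melanoma markers went from 9702 to 10457 CPM when subconfluent to 15248 to 17317 when confluent, and miR-124-3p from a mean of 57.9 to 166 CPM, and their part in the result was not tested. The calls and fold changes come from edgeR's quasi-likelihood test with Benjamini-Hochberg adjustment over all entries tested. So do all adjusted p-values of single entries unless DESeq2 is named. CPM of the members and related strands are scaled by TMM within the fit. Those of the marker miRNAs, and those behind the correlations over group means, are scaled to library totals.

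The guides miR-30d-5p and miR-30a-5p moved most. miR-30d-5p stood at 4723, 4086 and 4184 CPM in the subconfluent IP and at 2249, 2111 and 2195 CPM in the confluent IP, a log2 fold change of -0.99 ± 0.09 (SE, edgeR adjusted p = 9.65e-05). miR-30a-5p stood at 2697, 2514 and 2505 CPM and then at 1333, 1314 and 1426 CPM, 1.89-fold lower (log2 fold change -0.92 ± 0.08, SE, edgeR adjusted p = 9.65e-05). In both, all subconfluent libraries lay above all confluent ones and the gap was many times the spread within a group. That spread lies within 1 pool, so it does not measure how far pools differ. miR-30e-5p fell from 5707, 5410 and 4786 to 2948, 2973 and 2858 CPM (log2 fold change -0.86 ± 0.09, SE, edgeR adjusted p = 0.000167). miR-30c-5p fell from 9829, 9357 and 8597 to 6485, 5793 and 5233 CPM (log2 fold change -0.67 ± 0.10, SE, edgeR adjusted p = 0.00122). For these guides too the groups did not overlap. The change of miR-30b-5p was the smallest, from 8745, 8477 and 7890 to 7554, 6853 and 6343 CPM (log2 fold change -0.28 ± 0.09, SE, edgeR adjusted p = 0.0465). Its call was lost with DESeq2 (adjusted p = 0.0515), with library totals as scaling (0.142), without the low-count filter (0.0919), and when any IP library but confluent replicate 1 was left out (0.0678 to 0.147).

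Among the 3p strands, miR-30e-3p moved as its partner strand did, from 4704, 4293 and 4083 to 2918, 2904 and 2338 CPM (log2 fold change -0.68 ± 0.11, SE, edgeR adjusted p = 0.00124). miR-30a-3p fell less, from 1454, 1304 and 1244 to 1074, 1006 and 853 CPM (log2 fold change -0.45 ± 0.11, SE, edgeR adjusted p = 0.0130). miR-30d-3p, the rare partner of the guide that fell most, went the other way. It rose from 79.0, 72.3 and 78.3 to 133, 113 and 106 CPM (log2 fold change 0.61 ± 0.15, SE, edgeR adjusted p = 0.0130), and its call was lost without subconfluent replicate 2 (adjusted p = 0.0529). Of the related 3p strands, miR-30b-3p was also higher in the confluent IP, at 10.4, 26.5 and 23.3 CPM against 3.29, 10.8 and 9.53 (log2 fold change 1.36 ± 0.46, SE, edgeR adjusted p = 0.0440), with replicates that overlapped. miR-30c-1-3p and miR-30c-2-3p did not pass the test, with log2 fold changes of 0.95 and 0.63 and edgeR adjusted p-values of 0.133 and 0.0773. With library totals as scaling, the split of all entries moved from 99 higher and 90 lower to 112 and 58, with a median of 0.11.

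Against the HEK293 cytoplasm, all 8 members were higher in the IP, in a comparison in which 38.5% of 694 entries were higher and 35.0% lower. The members' median log2 fold change was 1.73, beside 0.37 over all entries. The guides miR-30e-5p and miR-30a-5p led. miR-30e-5p stood at 421, 275 and 150 CPM in confluent and 499, 215 and 333 CPM in subconfluent cytoplasm, and at 3582, 3863 and 3795 CPM in the confluent and 7623, 6844 and 6088 CPM in the subconfluent IP. It was 15.8-fold higher in the IP (log2 fold change 3.99 ± 0.26, SE, edgeR adjusted p = 4.51e-15). miR-30a-5p stood at 180.6, 169.4 and 374.6 CPM in confluent and 187, 167 and 235 CPM in subconfluent cytoplasm, and at 1620, 1707 and 1893 CPM in the confluent and 3602, 3180 and 3186 CPM in the subconfluent IP. That was an 11.4-fold difference (log2 fold change 3.51 ± 0.27, SE, edgeR adjusted p = 3.75e-13). In both cases the lowest IP library lay over 4 times above the highest cytoplasmic library.

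The other guides were also higher in the IP, by less. The log2 fold changes were 2.18 ± 0.20 (SE, edgeR adjusted p = 3.52e-11) for miR-30d-5p, 1.73 ± 0.17 (SE, edgeR adjusted p = 1.44e-10) for miR-30c-5p and 1.72 ± 0.17 (SE, edgeR adjusted p = 1.19e-10) for miR-30b-5p. miR-30e-3p, at 454 to 1821 CPM in the cytoplasm and 3104 to 6283 CPM in the IP, gave 1.71 ± 0.19 (SE, edgeR adjusted p = 2.35e-09). Of the other 3p strands, miR-30a-3p gave 0.94 ± 0.21 (SE, edgeR adjusted p = 0.000186) and miR-30d-3p 1.10 ± 0.38 (SE, edgeR adjusted p = 0.0105). Both calls were lost with DESeq2 (adjusted p = 0.381 and 0.434), with library totals (0.162 and 0.281) and with scaling to the 537 entries detected in the IP (0.298 and 0.378), and that of miR-30d-3p also under exchanged group names (0.434) and without subconfluent cytoplasm replicate 2 (0.0776) or 3 (0.0516). The related strands miR-30b-3p, miR-30c-1-3p and miR-30c-2-3p were lower in the IP, with log2 fold changes of -3.64, -1.28 and -1.34 (edgeR adjusted p = 3.37e-09, 0.00625 and 0.00111). The scalings moved the split of all entries from 267 higher and 243 lower to 183 and 313 (DESeq2, median -0.43), 200 and 281 (library totals, -0.23) and 196 and 289 (IP-detected entries, -0.32). The neuronal marker list summed to 12952 to 13434 CPM in the IP against 3874 to 7519 in HEK293 fractions, and the melanoma list to 9702 to 17317 against 2546 to 5412. The part of the IP's other composition, depth and library pools in these differences was not tested.

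**Figure D2:**
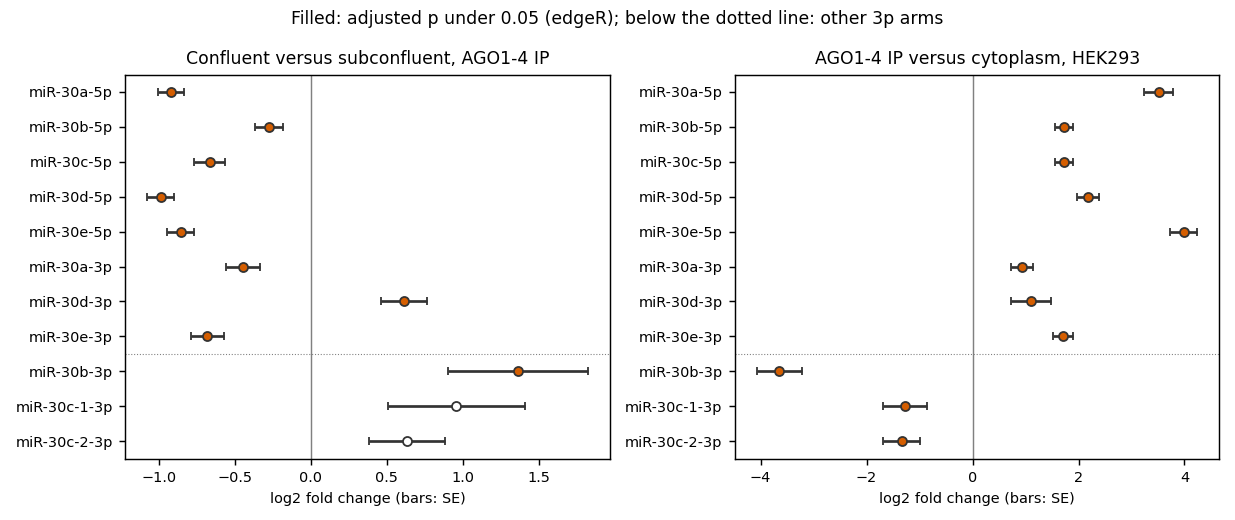
Log2 fold change (point) and SE (bar) of each member and, below the dotted line, of the other 3p arms, between confluent and subconfluent IP and between the IP and the cytoplasm of HEK293. Filled points passed an edgeR adjusted p of 0.05. In the confluency panel 7 members lie below 0 and miR-30d-3p lies at 0.61, and in the IP panel all 8 members lie above 0 and the other 3p arms below it.

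The ratio of the 5p to the 3p strand of a hairpin is read within a library and does not depend on scaling between libraries. In the 34 fraction libraries the 3p strand of miR-30a and miR-30e outnumbered the guide. The ratio of miR-30a was below 1 in 32 of them, with a range of 0.111 to 1.59 and a median of 0.290. For miR-30e it was below 1 in all 34, from 0.0476 to 0.872 with a median of 0.264. miR-30d went the other way in every library, with ratios of 1.55 to 95 and a median of 8.24, after 0.5 had been added to both counts since miR-30d-3p had 0 counts in 6 libraries. In the IP the guide of all 3 hairpins was the more abundant strand in all 6 libraries.

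For miR-30a the 5p to 3p ratio was 1.24 to 2.01 in the IP and 0.194 to 0.913 in HEK293 cytoplasm, 5.22-fold higher in the IP (6 against 6 libraries, exact two-sided permutation p = 0.005, the smallest this design allows, adjusted p = 0.0375 over 15 tests). For miR-30e it was 1.01 to 1.26 in the IP and 0.111 to 0.487 in the cytoplasm, 4.71-fold higher in the IP (exact two-sided permutation p = 0.005, adjusted p = 0.0375). The groups did not overlap for either hairpin. For miR-30d the ratio was 16.8 to 59.4 in the IP and 3.92 to 43.0 in the cytoplasm, the groups overlapped, and the test was not passed (exact permutation p = 0.11, adjusted p = 0.216). Without confluent cytoplasm replicate 3, which had no miR-30d-3p count, the log2 difference of miR-30d rose from 1.05 to 1.55 and passed (exact permutation, adjusted p = 0.025). Leaving out any 1 confluent IP library took the adjusted p of miR-30a and miR-30e to 0.075, at log2 differences of 2.19 to 2.43. Pooled over libraries, 65.9% (exact 95% interval 65.0 to 66.8%) of the miR-30a counts of the subconfluent IP were 5p, and 18.5% (12.4 to 26.1%) of those of subconfluent cytoplasm.

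The 3′ adapter differed between libraries, each fraction library of a line having its own, and ligation is known to depend on the ends of both RNA and adapter. IP replicates 1 and 2 had the adapters of confluent nucleus replicate 2 and confluent cytoplasm replicate 3. With the former adapter the miR-30a ratio was 0.122 in the HEK293 nucleus and 1.24 and 1.85 in the confluent and subconfluent IP. With the latter it was 0.913 in the HEK293 cytoplasm and 1.31 and 1.93 in the IP. For miR-30a the IP was higher with either adapter, by very different factors. miR-30e gave 0.0732 in the nucleus with the former adapter and 0.111 in the cytoplasm with the latter, against 1.010 to 1.26 in the IP. miR-30d with the latter adapter was 43.0 in confluent cytoplasm, from 21 counts and 0 counts, and 18.6 and 56.1 in the confluent and subconfluent IP. IP replicate 3 had the adapter of A375 confluent nucleus replicate 3, where the miR-30a ratio was 0.846, against 1.67 and 2.01 in the confluent and subconfluent IP. Subconfluent nucleus replicate 3, which carried 1 further adapter in all 3 lines, had miR-30a ratios of 1.59 in HEK293, 0.803 in A375 and 1.25 in SHSY5Y. SHSY5Y subconfluent nucleus replicates 1 and 2, with other adapters, had 0.868 and 0.685. The part of the adapter was not tested.

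Within the IP, the ratio of miR-30d was 53.1 to 59.4 when subconfluent and 16.8 to 20.6 when confluent, and that of miR-30a 1.85 to 2.01 and 1.24 to 1.67. Neither pair of groups overlapped, but 3 libraries against 3 cannot go below p = 0.1 in the exact permutation test, which both reached (adjusted p = 0.216). miR-30e differed less (log2 difference -0.17, exact permutation p = 0.3). Between nucleus and cytoplasm no ratio passed in any line by the column names. Under exchanged group names that of miR-30a in SHSY5Y did, the log2 difference going from 0.03 to 1.67 (exact permutation, adjusted p = 0.025). By the column names the nearest was miR-30d in SHSY5Y, with a log2 difference of 1.19 (exact permutation p = 0.04, adjusted p = 0.2). The other tests gave exact permutation p-values of 0.105 to 0.91. In the SHSY5Y nucleus the miR-30a ratio was 0.685 to 1.25 when subconfluent and 0.191 to 0.197 when confluent. In the SHSY5Y cytoplasm it was 0.453 to 0.909 and 0.227 to 0.364. That change with confluency was not tested, and the log2 difference of 0.03 between the fractions averages over it.

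**Figure D3:**
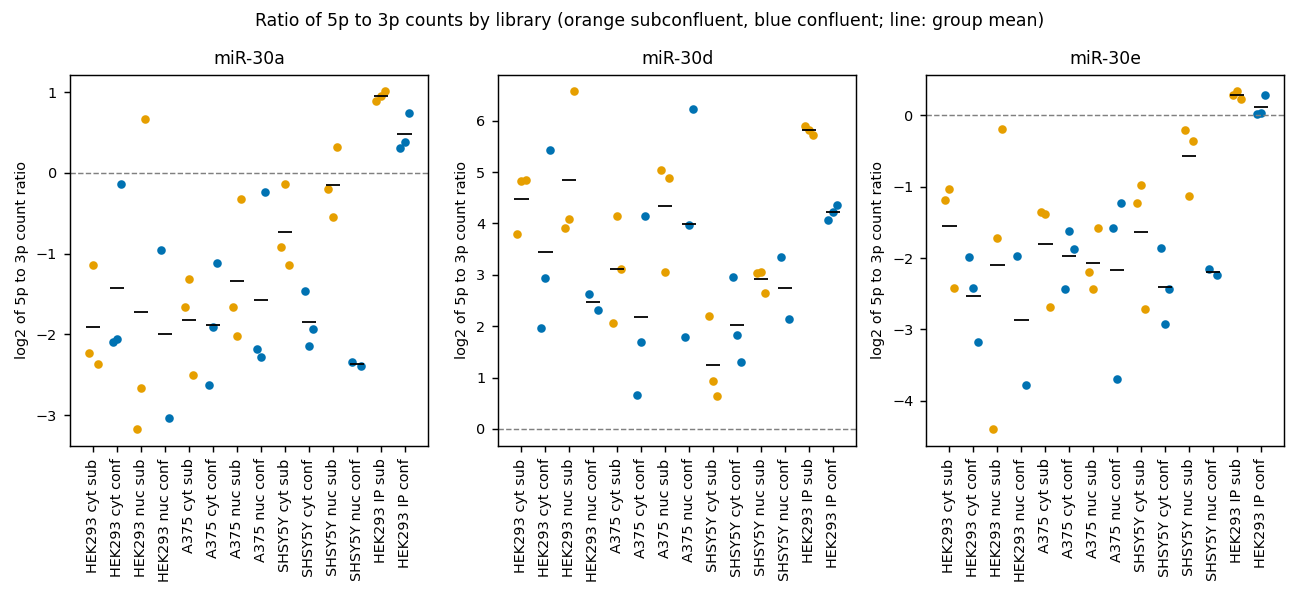
Log2 of the ratio of 5p to 3p counts of miR-30a, miR-30d and miR-30e in every library (0.5 added to both counts), by group. Orange points are subconfluent and blue points confluent libraries, short lines are group means, and the dashed line at 0 marks equal counts. The IP points of miR-30a and miR-30e lie above the dashed line, and 32 and all of the 34 fraction points of these hairpins below it.

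In SHSY5Y, 4 of 8 members were lower in confluent than in subconfluent cytoplasm and none was higher, where 25.3% of 348 entries were lower and 33.6% higher. The members' median log2 fold change was -0.81, beside -0.02 over all entries. miR-30a-5p stood at 1259, 1781 and 1015 CPM when subconfluent and at 680, 411 and 388 CPM when confluent (log2 fold change -1.41 ± 0.34, SE, edgeR adjusted p = 0.000597). miR-30b-5p stood at 6295, 4802 and 3157 CPM and then at 2573, 2590 and 2277 CPM (log2 fold change -0.92 ± 0.27, SE, edgeR adjusted p = 0.00419). Neither guide's groups overlapped. miR-30e-5p fell from 546, 413 and 240 to 177, 94.7 and 96.9 CPM (log2 fold change -1.54 ± 0.51, SE, edgeR adjusted p = 0.00975). Its confluent values rested on 6, 3 and 2 counts. miR-30e-3p, at 1301, 826 and 1624 CPM and then 680, 821 and 630 CPM, passed narrowly (log2 fold change -0.81 ± 0.32, SE, edgeR adjusted p = 0.0268). It did not pass with DESeq2 (0.0785), without the filter (0.168), or without confluent replicate 1 (0.0749), confluent replicate 3 (0.0765) or subconfluent replicate 3 (0.124). miR-30c-5p (log2 fold change -0.41, edgeR adjusted p = 0.225), miR-30d-5p (0.19, 0.660), miR-30a-3p (-0.30, 0.369) and miR-30d-3p (-0.81, 0.270) did not pass.

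In the SHSY5Y nucleus, 4 of 8 members, all of them guides, were lower in confluent cells, where 22.1% of entries were lower and 17.8% higher. miR-30a-5p showed the widest gap, from 3904, 3555 and 3660 CPM to 733 and 955 CPM, 4.44-fold lower (log2 fold change -2.15 ± 0.39, SE, edgeR adjusted p = 3.98e-05). miR-30e-5p fell from 1275, 636 and 932 to 262 and 239 CPM (log2 fold change -1.89 ± 0.54, SE, edgeR adjusted p = 0.00597). Its confluent values rested on 5 and 3 counts. miR-30b-5p stood at 8485, 12722 and 8003 CPM and then at 4608 and 5571 CPM (log2 fold change -0.94 ± 0.30, SE, edgeR adjusted p = 0.0141), and miR-30c-5p at 7211, 10627 and 6639 CPM and then at 3509 and 4855 CPM (log2 fold change -0.97 ± 0.32, SE, edgeR adjusted p = 0.0172). No guide named here overlapped between the groups, but only 2 confluent nuclear libraries were at hand. Leaving out confluent replicate 1 or 2 ended the calls of miR-30b-5p, miR-30c-5p and miR-30e-5p (edgeR adjusted p = 0.0576 to 0.26), and leaving out subconfluent replicate 2 those of miR-30b-5p (0.170) and miR-30c-5p (0.179). miR-30d-5p and the 3p strands had log2 fold changes of -0.34 to 0.09 and did not pass. The change with confluency was not shown to differ between nucleus and cytoplasm for any member of any line in the test of that difference, in which 0.575% of SHSY5Y entries passed as higher and 0.862% as lower, 2.32% and 1.74% of HEK293 entries and 12.5% and 2.26% of A375 entries. At an unadjusted p under 0.05, miR-30c-5p was the 1 member in HEK293 and in A375, and there was none in SHSY5Y.

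Between the SHSY5Y fractions, 6 of 8 members were higher in the nucleus, where 33.9% of entries were higher and 37.4% lower. The members' median log2 fold change was 1.06, beside 0.02 over all entries. miR-30a-3p stood at 1550 to 2392 CPM in the cytoplasm (median 1927) and at 2933 to 5201 CPM in the nucleus (median 4502), without overlap (log2 fold change 1.13 ± 0.21, SE, edgeR adjusted p = 1.3e-05). miR-30d-5p stood at 406 to 697 CPM (median 581) and 1115 to 1910 CPM (median 1309), again without overlap (log2 fold change 1.29 ± 0.25, SE, edgeR adjusted p = 3.01e-05). The other guides passed with log2 fold changes of 0.98 (miR-30c-5p) to 1.14 (miR-30e-5p), and their ranges overlapped between the fractions. miR-30e-3p (0.46, edgeR adjusted p = 0.0833) and miR-30d-3p (-0.07, 0.915) did not pass. In subconfluent SHSY5Y alone, 6 members were higher as well, where 113 of 348 entries were higher and 99 lower. The call of miR-30e-5p was lost with DESeq2 (0.0516), without the filter (0.283), and without confluent cytoplasm replicate 2 (0.104) or 3 (0.0927), confluent nucleus replicate 1 (0.0923) or 2 (0.0848) or subconfluent nucleus replicate 1 (0.0502), and that of miR-30a-5p without the filter (0.0517).

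These SHSY5Y calls depended on the scaling. Entries not detected in the IP took 33.4% of counts in subconfluent and 64.9% in confluent SHSY5Y cytoplasm, and 10.8% and 27.4% in the nucleus. Their share in the IP itself, 0.132% and 0.161%, is small by the way the set was chosen. The IP was from HEK293 only, so entries that HEK293 lacks can also fall in this set. When TMM factors were computed over IP-detected entries only, miR-30a-5p alone still passed in the cytoplasm (log2 fold change -0.87, edgeR adjusted p = 0.0250), and miR-30a-5p (-1.65, 0.0018) and miR-30e-5p (-1.37, 0.0450) in the nucleus. Between nucleus and cytoplasm, only miR-30d-5p did (0.60, edgeR adjusted p = 0.0410). The split of all entries moved from 117 higher and 88 lower to 142 and 37 in the cytoplasm (median 0.49), from 62 and 77 to 104 and 41 in the nucleus (0.56), and from 118 and 130 to 38 and 168 between the fractions (-0.68). The summed neuronal markers fell along with the guides, from 10990 to 14523 CPM to 3367 to 4928 CPM. The part of these shifts in the result was not tested, and the confluency comparison cannot be made without the confluent libraries. Under exchanged group names, the log2 fold change of miR-30d-5p in the cytoplasm became -1.08 (edgeR adjusted p = 0.0210) and that of miR-30a-3p in the nucleus -0.93 (0.00355), both reversed in sign. Members gained were miR-30a-3p in the cytoplasm (-1.33, 0.000697) and miR-30d-5p in the nucleus (-1.51, 0.000149). So 3 passed in the cytoplasm, where 86 of 348 entries were lower and 105 higher. In the nucleus 6 passed, where 113 of 348 entries were lower and 99 higher. miR-30a-5p (-0.72, 0.155), miR-30e-5p (-0.97, 0.241) and miR-30e-3p (-0.82, 0.0676) lost their calls in the cytoplasm. miR-30a-3p (0.11, 0.688) and miR-30d-5p (0.03, 0.930) lost those between the fractions.

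**Figure D4:**
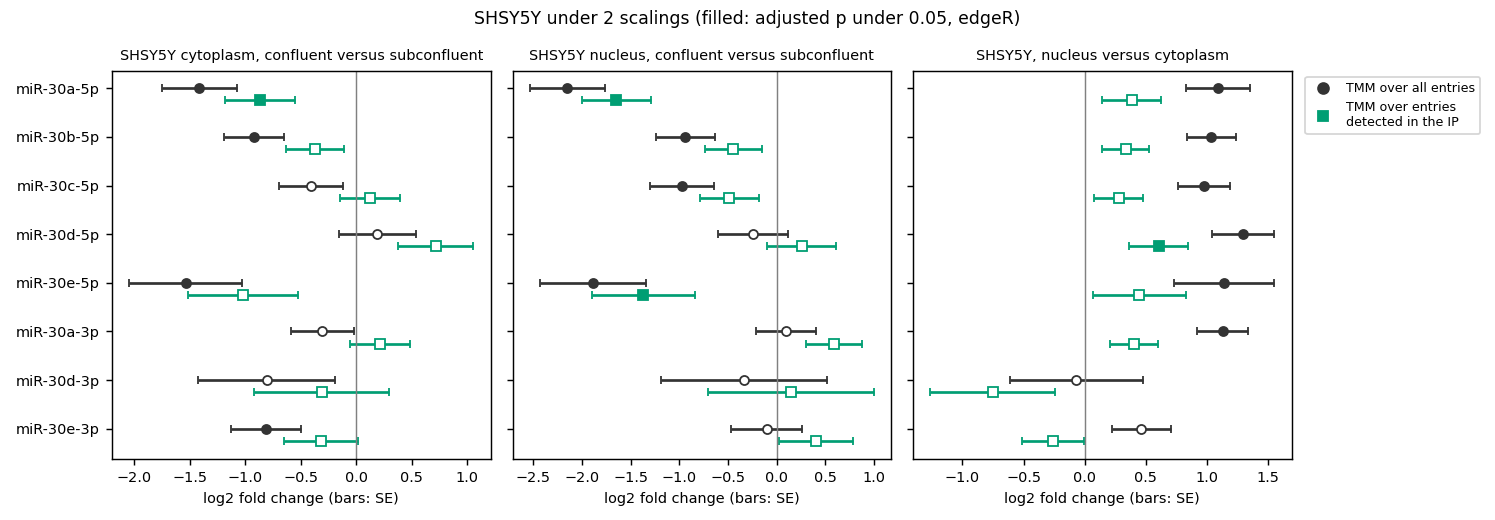
Log2 fold change (point) and SE (bar) of each member in the SHSY5Y comparisons of confluency in cytoplasm and nucleus and of nucleus against cytoplasm, with TMM factors over all entries or over IP-detected entries. Filled points passed an edgeR adjusted p of 0.05. The second scaling moves all points of a comparison in the same direction, and fewer are filled.

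In HEK293 fractions none of the 7 members tested passed between confluent and subconfluent cells by edgeR, in the cytoplasm (22.0% of 345 entries lower, 6.38% higher) or in the nucleus (1.16% lower, 0% higher). DESeq2 called none either, and at an unadjusted p under 0.05 the counts were 0 in the cytoplasm and 1 in the nucleus, miR-30c-5p. The nearest in the cytoplasm was miR-30d-5p (log2 fold change -0.76, edgeR adjusted p = 0.174), while the related miR-30b-3p was lower in confluent cytoplasm (-1.60, 0.0256). Between the fractions, miR-30c-5p was the 1 member called. It stood at 3276, 3980 and 2709 CPM in confluent and 3728, 2261 and 2950 CPM in subconfluent cytoplasm, and at 3501 and 5473 CPM in confluent and 4955, 11206 and 11331 CPM in subconfluent nucleus. It was higher in the nucleus (log2 fold change 1.03 ± 0.24, SE, edgeR adjusted p = 0.00124; 18.8% of entries higher, 35.1% lower), with 1 nuclear library inside the cytoplasmic range. The subconfluent groups alone gave 1.64 (0.00024), and exchanged group names 0.45 (0.206). miR-30b-5p, with no call over both confluencies, passed in the subconfluent groups alone (0.85, 0.0324). Under exchanged group names miR-30c-5p (-1.64, 0.00024) and miR-30b-5p (-0.85, 0.0324) passed between confluent and subconfluent nucleus.

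A375 had 6 members deep enough to test, miR-30e-5p and miR-30d-3p being too rare. In the cytoplasm none differed with confluency by edgeR (14% of 265 entries lower, 14.3% higher), 0 by DESeq2 and 0 at an unadjusted p under 0.05. In the nucleus miR-30c-5p fell from 6229, 12506 and 9238 to 2293, 3972 and 2949 CPM, 3.05-fold, without overlap (log2 fold change -1.61 ± 0.36, SE, edgeR adjusted p = 0.00156; 6.04% of entries lower, 18.9% higher). With group names exchanged it was -0.83 (0.107). No member passed between A375 nucleus and cytoplasm by edgeR, by DESeq2 or at an unadjusted p under 0.05 (7.55% of entries higher, 14% lower by edgeR), though miR-30c-5p passed under exchanged names (1.08, 0.00125). In both HEK293 and A375, miR-30c-5p was thus the 1 member called in a fraction comparison, and in both lines the call depended on which group names were used.

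Between the lines, both arms of miR-30a differed from HEK293. miR-30a-5p stood at 61.5 to 980 CPM (median 195) in the 11 HEK293 libraries, 695 to 1722 (median 1003) in the 12 of A375 and 343 to 4126 (median 1264) in the 11 of SHSY5Y. It was higher in A375 than in HEK293 (log2 fold change 1.88 ± 0.27, SE, edgeR adjusted p = 3.81e-08; 33.3% of 478 entries higher, 32.6% lower) and higher in SHSY5Y than in HEK293 (2.09 ± 0.27, SE, 4.21e-09; 37.9% higher, 33.1% lower). HEK293 subconfluent nucleus replicate 3, at 980 CPM from 21 counts, lay within the ranges of both other lines, and the HEK293 libraries rested on 1 to 21 counts each. miR-30a-3p stood at 368 to 1541 CPM (median 958) in HEK293, 1421 to 6290 (median 3582) in A375 and 1373 to 6037 (median 2804) in SHSY5Y, with log2 fold changes against HEK293 of 2.02 ± 0.22 (SE, edgeR adjusted p = 5.95e-11) and 1.80 ± 0.22 (SE, 1.2e-09). The ranges touched only at their ends. Neither strand passed between SHSY5Y and A375 (miR-30a-5p 0.21, 0.469; miR-30a-3p -0.22, 0.358).

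miR-30d-3p was also higher in A375 (log2 fold change 1.66 ± 0.66, SE, edgeR adjusted p = 0.0267) and in SHSY5Y (2.34 ± 0.56, SE, 0.000284) than in HEK293, at medians of 99.2, 174 and 37.4 CPM. With 0 to 6 counts in each HEK293 library, miR-30d-3p was near the floor there. Its call for A375 was lost without the filter (0.106) and without nuclear confluent replicate 1 (0.116), nuclear subconfluent replicate 2 (0.0721) or 3 (0.0586) of A375. miR-30d-5p was highest in A375, at 627 to 2768 CPM (median 1342), against 492 to 2192 (median 807) in HEK293 and 485 to 2153 (median 771) in SHSY5Y. Its log2 fold changes were 0.72 ± 0.25 for A375 against HEK293 (SE, edgeR adjusted p = 0.00984) and -0.74 ± 0.24 for SHSY5Y against A375 (SE, 0.00912; 32.8% of entries higher, 22.8% lower), within ranges that overlapped widely. Library totals took the first to 0.50 (0.0575). miR-30b-5p was higher in SHSY5Y than in HEK293 (0.52 ± 0.18, SE, 0.0119), but not with library totals (0.102). miR-30c-5p, miR-30e-5p and miR-30e-3p passed in no comparison over all groups of the lines in the main fit, with TMM scaling over all entries. For A375 against HEK293, miR-30b-5p and miR-30c-5p passed as higher with DESeq2, with scaling to IP-detected entries and with the near-empty libraries kept (6 members in place of 4). All entries then split into 174 higher and 135 lower with DESeq2, and 170 and 147 with the near-empty libraries. With 1 library left out, miR-30b-5p passed in 10 and miR-30c-5p in 9 of 34 fits. miR-30c-5p also passed with a 3′ adapter block, and miR-30e-3p as lower with library totals (-0.49, edgeR adjusted p = 0.0437). For SHSY5Y against A375, miR-30c-5p passed as lower without HEK293 subconfluent cytoplasm replicate 2 (-0.41, edgeR adjusted p = 0.0318) or 3 (-0.41, 0.033). For SHSY5Y against HEK293, miR-30c-5p passed as higher with scaling to IP-detected entries (0.46, edgeR adjusted p = 0.0138). Scaling to IP-detected entries moved the split of all entries from 159 higher and 156 lower to 194 and 114 for A375 against HEK293, and from 181 and 158 to 215 and 112 for SHSY5Y against HEK293.

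In the subconfluent groups alone, miR-30a-5p and miR-30a-3p were again higher than in HEK293 in A375 (log2 fold changes 2.02 and 2.13, edgeR adjusted p = 7.87e-06 and 1.28e-07) and in SHSY5Y (3.08 and 2.11, 6.39e-11 and 4.5e-08). miR-30d-5p no longer passed in A375 against HEK293 (0.52, 0.186) or in SHSY5Y against A375 (-0.73, 0.0549), and miR-30d-3p not in A375 (2.54, 0.0638). SHSY5Y then passed above A375 for miR-30a-5p (1.07, 0.0028), miR-30b-5p (0.73, 0.00982), miR-30e-5p (1.5, 0.00529) and miR-30d-3p (1.57, 0.0262). In that comparison 160 of 478 entries were higher and 101 lower.

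Whether the confluency effect differed between the 3 lines was tested in 1 model. In the cytoplasm, 3 of 8 members passed, miR-30a-5p (edgeR adjusted p = 0.0367), miR-30b-5p (0.0170) and miR-30e-3p (0.0239), where 37.9% of all entries, a similar share, passed. In the nucleus none did (edgeR, 8.16% of entries), with 1, miR-30a-5p, at an unadjusted p under 0.05. With scaling to IP-detected entries no member passed in the cytoplasm (edgeR adjusted p = 0.394, 0.341 and 0.395 for the 3 named). Under exchanged group names these were 0.528, 0.0978 and 0.129, and miR-30a-3p passed (0.0266).

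The make-up of the 5 guides is given as a description. For miR-30a-5p, SHSY5Y lay above HEK293 without overlap and A375 overlapped both, and the lines overlapped for the other guides. The IP stood apart from every fraction library for miR-30e-5p only. miR-30b-5p and miR-30c-5p together made up most guide counts everywhere. Of the guide counts, miR-30a-5p took 2.94% ± 1.70 (SD, n = 11) in HEK293, 8.59% ± 2.19 (SD, n = 12) in A375, 11.4% ± 4.48 (SD, n = 11) in SHSY5Y and 7.86% ± 0.977 (SD, n = 6) in the IP. In SHSY5Y it averaged 13.4% and 15.8% in subconfluent cytoplasm and nucleus and 7.90% and 7.24% in the confluent groups. miR-30e-5p took 3.30% ± 2.0 (SD, n = 11), 1.99% ± 0.977 (SD, n = 12) and 3.09% ± 1.35 (SD, n = 11) in the lines and 16.5% ± 1.5 (SD, n = 6) in the IP, with no fraction library above 6.16%. miR-30c-5p took 44.2%, 41.5%, 35.7% and 30.7% in the same order, and miR-30b-5p 39.0%, 36.3%, 42.0% and 32.0%. miR-30d-5p took 10.6%, 11.7%, 7.72% and 13.0%.

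**Figure D5:**
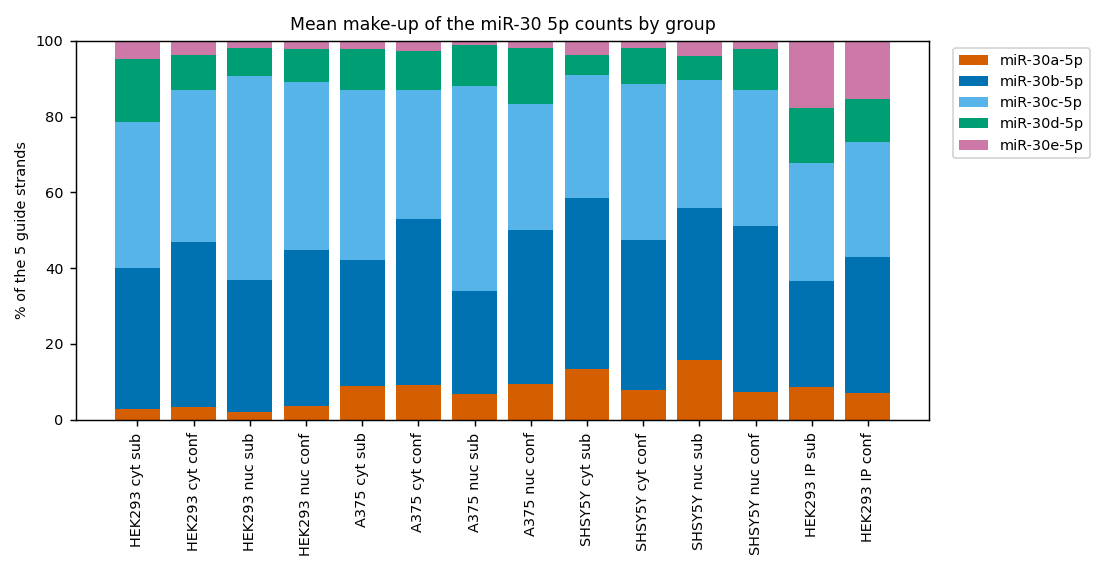
Mean make-up of the counts of the 5 miR-30 guides (percent, stacked bars from 0 to 100) in each of the 14 groups. The miR-30e-5p segment is widest in both IP bars and the miR-30a-5p segment narrowest in the HEK293 fraction bars.

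Over the 14 group means of log2 CPM, the summed guides followed miR-30b-5p (Pearson r = 0.915) and miR-30c-5p (0.889) most closely, then miR-30d-5p (0.755), miR-30a-5p (0.656) and miR-30e-3p (0.607), and last miR-30a-3p (0.041). miR-30e-5p, which is in the sum, and miR-30d-3p were not deep enough in every line and are not ranked. The guides are parts of the sum, and miR-30b-5p and miR-30c-5p are its largest parts, so their coefficients follow in part from that, whereas the 3p strands are not in it. Of 119 entries outside the family that were deep enough in every line and in the IP, miR-19b-3p (0.828), miR-17-3p (0.821), miR-20a-5p (0.795), miR-19a-3p (0.759) and miR-425-5p (0.744) were most alike in pattern. These coefficients describe groups that share lines, pools and scaling.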

How the data were processed

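The authors deposited raw counts of reads per miRNA entry, made per the submitters' processing notes with Bowtie2 and bedtools on hg38 (versions not given in the sources used here). How reads that match several entries were counted is not given there either. Counts were tested as deposited, by groups taken from the labels, with edgeR 4.0.16 in R 4.3.3 (quasi-likelihood test, TMM scaling, a minimum of 10 counts in 3 or more of a fit's libraries, Benjamini-Hochberg adjustment, threshold 0.05). Fits covered each line, the IP, all lines together, and HEK293 fractions with the IP. Log2 ratios of 5p to 3p counts were compared by exact two-sided permutation (scipy 1.17.1), within confluency where both were used, and adjusted over 15 tests. Depth was 9817 to 1124959 counts per library, and 2 near-empty libraries were left out. Alternatives were DESeq2 1.42.0, library totals, scaling to IP-detected entries, no filter, a replicate block, exchanged group names, the near-empty libraries kept, a pseudocount of 1 or pooled counts for the ratios, and each library left out. Those with an adapter block or with subconfluent groups only, and all alternatives for differences between confluency effects, were chosen after seeing the data. Same-numbered IP libraries deviated together (correlations over 537 entries 0.565, 0.327 and 0.374). They also shared a 3′ adapter, so a tie by sample cannot be told from one by adapter. The numbers were taken as pairing them in the replicate block only, and the other IP values come from unpaired tests. All 8 members are named, and the members and lists were chosen with earlier results of these data known. The procedures were tested on simulated data.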

Additional observations from a re-analysis of the deposited data

Results flagged for a closer look

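The change with confluency in the cytoplasm differed between the 3 lines for 3 of 8 members in edgeR's test of that difference. In it 37.9% of all entries passed, a share close to that of the members. For miR-30a-5p (adjusted p = 0.0367), the log2 fold change was 0.24 in HEK293, -0.18 in A375 and -1.41 in SHSY5Y. For miR-30b-5p (adjusted p = 0.0170) it was 0.24, 0.27 and -0.92. For miR-30e-3p (adjusted p = 0.0239) it was 0.51, 0.38 and -0.81. SHSY5Y was the line in which each of them fell, and no HEK293 or A375 value passed. The calls were lost with scaling to IP-detected entries (adjusted p = 0.394, 0.341 and 0.395) and under exchanged group names (0.528, 0.0978 and 0.129). Leaving out SHSY5Y confluent cytoplasm replicate 2 or 3 left none of the 3 past the threshold (0.0622 to 0.222). At least 1 of these calls was also lost (0.0512 to 0.134) without cytoplasmic confluent replicate 2 or subconfluent replicate 3 of A375, confluent replicate 3 or subconfluent replicate 1 or 2 of HEK293, or confluent replicate 1 or subconfluent replicate 1, 2 or 3 of SHSY5Y.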

How the results depend on the processing

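The number of members past the threshold in SHSY5Y moved most. It went from 4 to 1 with DESeq2, 2 with library totals and 2 with scaling to IP-detected entries in the nucleus, from 4 to 1 with that scaling and 2 without the filter in the cytoplasm, and from 6 to 1 with that scaling between the fractions. For SHSY5Y against A375 it went from 1 to 0 without the filter and to 4 in the subconfluent groups alone. For HEK293 nucleus against cytoplasm it went from 1 to 2 with the near-empty libraries kept, 2 in the subconfluent groups alone and 0 under exchanged names. Exchanged names also gave 2 for confluency in HEK293 nucleus, 0 in A375 nucleus, and 1 between the A375 fractions, reversed miR-30d-5p in SHSY5Y cytoplasm (-1.08) and miR-30a-3p in SHSY5Y nucleus (-0.93), and took the log2 difference of the miR-30a ratio between SHSY5Y fractions from 0.03 to 1.67, past the threshold. The difference of confluency effects between the lines in cytoplasm went from 3 to 0 with scaling to IP-detected entries and to 1 without the filter or under exchanged names. Over all entries of SHSY5Y nucleus, 48 of 348 were lower and 70 higher with DESeq2, and 45 and 106 with library totals. Without the filter, 62 of 2507 entries were lower and 79 higher in SHSY5Y cytoplasm. For SHSY5Y against A375 they were 95 and 196 of 2618, and in the subconfluent groups alone 101 and 160 of 478. For HEK293 nucleus against cytoplasm, 125 of 345 were lower and 74 higher with the near-empty libraries kept. In the subconfluent groups alone these were 120 and 67. Exchanged names gave 67 lower and 120 higher of 345 in HEK293 nucleus, 12 and 41 of 265 in A375 nucleus, and 54 and 37 between the A375 fractions. The causes were not tested.

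With 1 library left out, the members called ranged over 6 to 8 for confluency in the IP, 7 to 8 for the IP against cytoplasm, 3 to 4, 1 to 4 and 5 to 7 in SHSY5Y cytoplasm, nucleus and between its fractions, 0 to 1, 0 to 1 and 1 to 2 in HEK293, and 0, 1 and 0 in A375. They ranged over 3 to 6 for A375 against HEK293, 4 for SHSY5Y against HEK293 and 1 to 2 for SHSY5Y against A375. Effects across lines gave 0 to 4 in cytoplasm and 0 to 1 in nucleus, and the difference between HEK293 fractions 0 to 1. Shares over all entries are not given for these fits, so the ranges are not set against them. The log2 differences of the 5p to 3p ratios between IP and cytoplasm ran over 2.22 to 2.71 (miR-30a), 0.68 to 1.55 (miR-30d) and 2.02 to 2.37 (miR-30e).

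In the paired fit of the IP with the replicate block, 8 members passed as without it, while calls over all entries went from 99 higher and 90 lower to 145 and 156. Among the fraction libraries the same numbers did not deviate together in every pair. Between same-numbered nuclear and cytoplasmic libraries the correlations ran from -0.219 (A375 subconfluent replicate 2) to 0.239 (HEK293 confluent replicate 2). In shallow libraries with different adapters this cannot tell whether they came from the same cells, and the labels do not say. Outside the replicate block the fraction tests were unpaired. With the replicate block in the fraction fits, 1 member passed for the effect across lines in the nucleus (miR-30a-5p, adjusted p = 0.0394) and miR-30b-5p passed for A375 against HEK293 (0.41, 0.0444). Over single members and all settings but those with a library left out, 773 of 852 values kept their side of the threshold, 53 lost a call, 24 gained one and 2 reversed.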
